A study of Mus musculus with 3 samples.

Results

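Circadian clock output was described here through 10 genes of the 31054 features in the files, taken by name: Dbp, Tef, Hlf, Nr1d1, Nr1d2, Per1, Per2, Per3, Ciart and Arntl. All 10 were found. Their UMIs (unique molecular identifiers, one per captured transcript molecule) were summed per library over cells gated by a few marker genes, and the question was whether genes of opposite clock phase differed between the libraries in opposite directions in every cell type.

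The mammalian clock is a feedback loop in which BMAL1, the protein of Arntl, pairs with CLOCK or NPAS2 and activates genes that carry E-box sequences. Among its targets are the repressors of the loop (Per1, Per2, Per3, Ciart), the nuclear receptors REV-ERB alpha and beta (Nr1d1, Nr1d2), which repress Arntl in turn, and the transcription factors DBP, TEF and HLF, which pass the rhythm on to genes with D-box sequences. In most tissues, lung among them, these target genes peak at roughly the opposite time of day from Arntl, so that a shift of clock time moves Dbp and Nr1d1 one way and Arntl the other.

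Cells of mouse lung were profiled by droplet 3' single-cell RNA sequencing in 3 libraries, 1 per group. The control group was wild-type mice without irradiation. The second group was wild-type mice after irradiation. The third was conditional knockout mice that were irradiated and also given a drug, and no group had the knockout without the drug or the drug without the knockout. The knocked-out gene, its Cre driver, the drug, the radiation dose, the time after irradiation, strain, age, number of mice and time of day of tissue collection are named in none of the labels. The targeted gene could therefore not be checked, and knockout, drug, mouse and time of collection cannot be told apart between libraries. Each group being 1 library, nothing was tested and the variation among mice is unknown. Levels are in CPM, a gene's UMIs per 1000000 UMIs of its gate. Intervals are 95% intervals, exact Poisson for levels and exact conditional binomial for ratios of levels, and cover counting error only.

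The libraries hold 45800421 to 85984536 UMIs in 7084 to 15485 barcodes, and 5805 to 13091 cells had at least 250 genes and at most 15% mitochondrial UMIs, with medians of 4899 to 6070.5 UMIs. Pairs of libraries shared 25 to 46 barcodes. Gates were T cells (at least 2 UMIs of Cd3d, Cd3e and Cd3g together; 1859, 2674 and 5103 cells in the order non-irradiated wild-type, irradiated wild-type, irradiated knockout with drug, used throughout), T cells with a Trdc UMI, which lie inside the T gate (397, 851 and 1649), B cells (at least 2 Cd79a UMIs; 1425, 571 and 763), NK cells (Ncr1 and no Cd3 UMI; 318, 339 and 463), endothelial cells (at least 2 Pecam1 and Cdh5 UMIs; 2945, 401 and 695) and fibroblasts (at least 2 Col1a1 and Col1a2 UMIs; 3950, 424 and 963). The summed level of each gate's marker list was highest in that gate in every library, though markers were above 0 in unlike gates too. The endothelial gate went against its name in the irradiated libraries: 53.9% and 53.1% of its cells also passed the gate of an unlike cell type, against 26.2% without irradiation. Its 6 endothelial markers summed to 5125, 1242 and 1925 CPM, and 7 T cell markers in it to 314, 1413 and 1566 CPM. Male cells, by Y-linked genes without Xist, were 27.5% of the irradiated wild-type library and under 1% of the others, so the sexes mix in that library only. Values are therefore also given for strict gates, chosen after the data were seen, in which lymphocytes have no stromal, epithelial or other-lymphocyte gate UMI, endothelial cells have Cdh5 and no Ptprc, collagen I or Epcam UMI, and fibroblasts have no Ptprc, Cdh5, Pecam1 or Epcam UMI.

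Promoter sequences are shown because the 10 genes were grouped by how the clock reaches them, and the letters show which of them carry a classical clock element near the start. RefSeq windows of 250 bases before to 50 after the start (GRCm38.p6, the patch level of the mm10 build) were found for 9 of 10 genes, in 12 windows, with no entry for Per2. Both strands were searched for the E-box CACGTG, found in 7.15% of 32851 promoters of the same length, the D-box TTATGTAA (0.938%), the element TAGGTCA bound by ROR and REV-ERB receptors (2.61%) and the cAMP response element TGACGTCA (1.79%). Capitals mark the matches, and the strand printed is that of the gene. Ciart has 3 E-boxes, first bases at -116, -58 and -44 from the start (chr3:95882179-95882478, minus strand). Per1 has 1, at -166 (chr11:69098699-69098998, plus strand). Arntl has a receptor element at 30 bases after the start of one of its windows (chr7:113207261-113207560, plus strand). The windows of Dbp (chr7:45704997-45705296, plus strand) and Nr1d1 (chr11:98775328-98775627, minus strand), both textbook targets of BMAL1, hold none of the letters searched, which says nothing of elements elsewhere in the genes.
Ciart: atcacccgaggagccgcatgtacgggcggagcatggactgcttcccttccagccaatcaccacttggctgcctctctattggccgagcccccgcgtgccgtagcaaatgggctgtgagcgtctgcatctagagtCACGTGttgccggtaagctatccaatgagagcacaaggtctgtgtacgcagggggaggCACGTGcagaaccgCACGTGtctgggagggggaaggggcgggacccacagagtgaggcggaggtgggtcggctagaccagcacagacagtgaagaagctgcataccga
Per1: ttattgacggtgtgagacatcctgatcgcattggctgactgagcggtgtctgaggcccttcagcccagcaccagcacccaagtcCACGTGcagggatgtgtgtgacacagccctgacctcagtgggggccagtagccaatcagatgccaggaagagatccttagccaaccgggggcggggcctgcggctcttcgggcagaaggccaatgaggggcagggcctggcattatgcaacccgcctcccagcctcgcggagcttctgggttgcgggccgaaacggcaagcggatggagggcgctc
Arntl: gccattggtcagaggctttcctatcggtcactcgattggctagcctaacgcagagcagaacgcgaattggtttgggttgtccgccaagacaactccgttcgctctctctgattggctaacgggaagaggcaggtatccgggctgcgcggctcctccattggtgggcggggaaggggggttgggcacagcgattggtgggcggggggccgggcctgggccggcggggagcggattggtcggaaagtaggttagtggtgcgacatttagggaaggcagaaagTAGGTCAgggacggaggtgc
Dbp: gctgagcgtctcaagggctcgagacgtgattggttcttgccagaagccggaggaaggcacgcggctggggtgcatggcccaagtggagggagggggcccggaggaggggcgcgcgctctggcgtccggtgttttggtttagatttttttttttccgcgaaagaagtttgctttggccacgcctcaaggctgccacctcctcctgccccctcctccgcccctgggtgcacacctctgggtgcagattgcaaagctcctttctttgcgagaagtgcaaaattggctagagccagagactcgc
Nr1d1: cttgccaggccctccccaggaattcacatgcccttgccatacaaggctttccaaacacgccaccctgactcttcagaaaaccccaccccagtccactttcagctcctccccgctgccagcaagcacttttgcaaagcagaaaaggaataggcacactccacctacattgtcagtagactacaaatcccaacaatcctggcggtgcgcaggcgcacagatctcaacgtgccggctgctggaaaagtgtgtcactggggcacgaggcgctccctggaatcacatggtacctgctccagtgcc

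Of the other windows, Tef had 1 E-box in each of 2 windows, Hlf a cAMP response element at -9, and Per3 had 2 D-boxes, at -205 and -158, while Nr1d2 had no match. A match is a description of letters and not evidence of binding in lung.

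The members differed first by cell type. Ciart, a repressor of CLOCK and BMAL1, was a B cell transcript in these lungs: its level in B cells was 187, 203 and 139 CPM, and in no other of 8 gates, which include phagocytes (at least 2 Csf1r and Adgre1 UMIs, no Cd3 or Cd79a UMI) and epithelial cells (at least 2 Epcam and Cdh1 UMIs), did it pass 29.2 CPM. Thinned to 1000 UMIs per cell, 17.8%, 17.5% and 12.3% of B cells had a Ciart UMI, against 0.539%, 1.53% and 1.04% of T cells. Without thinning the shares were 53.4%, 55.2% and 46.9% of B cells and 8.77%, 8.98% and 7.43% of T cells, at median depths of 4745 to 6054 UMIs in B cells and 6614 to 6914 in T cells. In strict B cells with a UMI of the B cell marker Ms4a1 the level was 211, 229 and 174 CPM.

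Hlf was highest in T cells with Trdc, the constant gene of the delta receptor chain, at 139, 190 and 166 CPM. The whole T gate had 78.9, 103 and 79.6 CPM and B cells only 7.60, 6.44 and 7.51 CPM. In strict gates the separation was wider, with 180, 198 and 175 CPM in Trdc T cells and 0.973, 2.92 and 1.27 CPM in B cells, the latter from 3, 7 and 4 UMIs. The share of Trdc T cells with an Hlf UMI at 1000 UMIs per cell was 14.9%, 15.5% and 15.3% (45.6%, 54.1% and 50.5% unthinned, at median depths of 6138 to 6545), which is nearly the same in the 3 libraries, against 0.421%, 0.876% and 0.131% of B cells.

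Nr1d1 was highest in epithelial cells, with 201, 131 and 109 CPM, and next in fibroblasts, with 121, 98.6 and 66.8 CPM. NK and B cells were lowest, between 6.22 and 23.4 CPM. Per1 had its highest level in B cells in all 3 libraries (188, 200 and 127 CPM), followed by NK cells (128, 154 and 115 CPM), though in the knockout library the levels of B and NK cells were within counting error of each other. Tef was highest in fibroblasts in all 3 libraries, and Dbp in the wild-type ones. Per2 and Per3 were highest in epithelial cells and fibroblasts and stayed under 25 CPM in every gate. Levels of Arntl and Nr1d2 were highest in Trdc T cells in all 3 libraries.

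**Figure D1:**
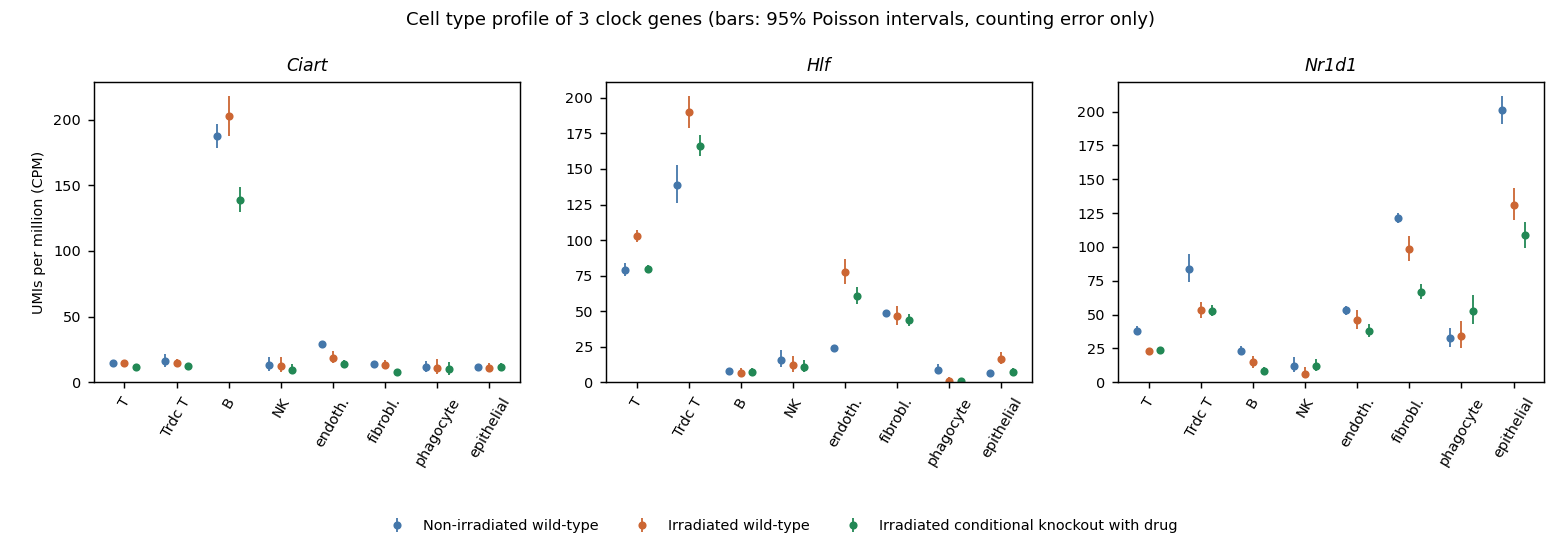
Level of Ciart, Hlf and Nr1d1 (vertical axes, CPM) in 8 gates (horizontal axes) for the 3 libraries, with bars for 95% Poisson intervals. Ciart stands out in B cells at 139 to 203 CPM, Hlf in Trdc T cells at 139 to 190 CPM, and Nr1d1 in epithelial cells at 109 to 201 CPM.

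Arntl, the activator, was higher in the irradiated wild-type library than in the non-irradiated one in 6 of 6 gates. In T cells its level was 26.3, 41.4 and 30.2 CPM, from 383, 891 and 1272 UMIs, so that the irradiated wild-type library was high and the knockout library lay between. The ratio of irradiated to non-irradiated wild-type was 1.57 (1.39 to 1.78), and the ratio of knockout to irradiated wild-type 0.730 (0.669 to 0.796). B cells (15.6, 22.8 and 14.7 CPM), NK cells (19.0, 27.7 and 21.3 CPM) and endothelial cells (19.9, 37.6 and 24.9 CPM) had the same library on top. Fibroblasts did not: there Arntl was 21.2, 25.4 and 31.2 CPM, lowest without irradiation and highest in the knockout library. The fibroblast ratio of knockout to non-irradiated wild-type was 1.47 (1.28 to 1.68), while both steps on the way, 1.20 (0.974 to 1.46) and 1.23 (0.984 to 1.54), had intervals that include 1. Outside the 6 gates, Arntl was 15.1, 15.4 and 12.5 CPM in epithelial cells. In phagocytes it was 7.66, 4.99 and 3.78 CPM, highest in the control, from 21, 7 and 7 UMIs. Being higher in irradiated wild-type than in non-irradiated wild-type in all 5 gates that do not nest was common among genes, at 17.8% of those tested.

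Dbp, the transcription factor that is a standard readout of clock phase, was highest in the non-irradiated library in 6 of 6 gates. In fibroblasts its level was 37.7, 15.1 and 9.59 CPM, from 1307, 67 and 91 UMIs. Each library stood apart from the next: the ratio was 0.400 (0.308 to 0.511) for irradiated to non-irradiated wild-type and 0.636 (0.459 to 0.885) for knockout to irradiated wild-type. From the control to the knockout library the ratio was 0.254 (0.203 to 0.314), a difference of -1.55 on the log2(CPM + 5) scale used for all log2 values here, which was number 57 from the lowest of 14125 genes tested in fibroblasts. Of the 67 UMIs in irradiated wild-type fibroblasts, 25.4% came from 3 cells.

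Among the 6 gates Dbp was scarce outside fibroblasts. In T cells it was 8.72, 3.67 and 5.34 CPM, in B cells 14.2, 7.02 and 6.26 CPM, and in NK cells 7.20, 5.66 and 5.14 CPM from 10 to 14 UMIs per library. The T cell ratio was 0.421 (0.314 to 0.562) for irradiated to non-irradiated wild-type. From there to the knockout library it went the other way, at 1.46 (1.12 to 1.91), opposite to fibroblasts. The background for a gene being highest in the non-irradiated library in all 5 gates that do not nest is 6.65% with these gates and 0.655% with the strict ones, where Dbp no longer had that order in NK cells (2.37, 5.60 and 3.96 CPM from 2, 8 and 8 UMIs) or in endothelial cells.

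Tef and Hlf, the relatives of Dbp that bind the same D-box, differed little where Dbp differed most. Tef in fibroblasts was 32.9, 30.6 and 26.6 CPM and Hlf was 48.5, 46.6 and 43.6 CPM. Both were lowest in the knockout library, and the ratio of irradiated to non-irradiated wild-type for Hlf was 0.961 (0.828 to 1.11). In T cells Hlf was higher in irradiated wild-type, with a ratio of 1.31 (1.21 to 1.40), and the knockout library was back at the control level, with a ratio to it of 1.01 (0.944 to 1.08). Tef in NK cells was 13.9, 24.3 and 18.4 CPM from 27, 43 and 50 UMIs, highest in irradiated wild-type, whereas in the endothelial gate it was 18.8, 13.5 and 16.1 CPM.

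The endothelial gate gave the only value more than 2-fold higher. Hlf was 24.3, 77.3 and 60.7 CPM there, with a ratio of 3.18 (2.75 to 3.68) between the wild-type libraries. The T cell markers in this gate, given above, were higher after irradiation too, and their part in the difference was not tested. In strict endothelial cells the level was 4.94 CPM, 0 UMIs in 74 cells, and 6.42 CPM from 7 UMIs, and a count of 0 in those cells allows up to 5.89 CPM by the limit of 3 UMIs used for counts of 0 in place of the interval.

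Nr1d1, the repressor of Arntl, was also highest without irradiation in 6 of 6 gates, though in NK cells the control (12.3 CPM) and the knockout library (12.1 CPM) were level. With strict gates that order was lost in NK cells (4.74, 1.40 and 5.45 CPM from 4, 2 and 11 UMIs) and in endothelial cells. In fibroblasts, where 4204, 438 and 634 UMIs were counted, the level went from 121 to 98.6 to 66.8 CPM. The first step had a ratio of 0.812 (0.734 to 0.896) and the second 0.678 (0.599 to 0.767). Between the irradiated libraries its log2 difference of -0.53 was number 161 from the lowest of 12316 genes tested in fibroblasts. The first step was smaller among female cells (Xist and no Y-linked UMI), at -0.09 on the log2 scale against -0.29 with all cells. The second step was then -0.72. This choice leaves out cells with neither signal as well as male cells, which were 10.1% of irradiated wild-type fibroblasts. Outside the 6 gates, epithelial cells had the same order as fibroblasts, with ratios of 0.653 (0.588 to 0.724) and 0.829 (0.730 to 0.941). Phagocytes did not, with 32.5, 34.2 and 52.9 CPM, lowest in the control.

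In T cells Nr1d1 was 38.1, 22.9 and 23.5 CPM, high in the control and equal in the irradiated libraries, whose ratio was 1.03 (0.922 to 1.15). Trdc T cells, with 84.0, 53.3 and 52.9 CPM, had the same pattern, which remained with strict gates at 101, 55.9 and 56.0 CPM and a ratio of 0.555 (0.446 to 0.694) between the wild-type libraries. In B cells it was 23.4, 14.6 and 8.58 CPM. Endothelial cells turned with purity: 53.0, 46.2 and 38.2 CPM in the gate, but 28.0, 88.3 and 50.4 CPM in strict cells, where 57.8% of the 45 irradiated wild-type UMIs came from 3 of 74 cells.

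Nr1d2, the second REV-ERB gene, did not go with Nr1d1. Its level in T cells was 61.3, 95.5 and 59.3 CPM, with irradiated wild-type 1.56 times the control (1.44 to 1.69) and the knockout library 0.621 of irradiated wild-type (0.585 to 0.658). B cells had 54.8, 85.4 and 59.4 CPM and NK cells 53.0, 69.0 and 52.9 CPM, again with irradiated wild-type on top and the others level. Fibroblasts were the exception among the 6 gates, with 59.4, 52.0 and 45.3 CPM, in the same order as Nr1d1, although the second step had a ratio of 0.872 (0.741 to 1.03). The endothelial gate had 46.5, 76.0 and 53.1 CPM, but strict endothelial cells had 40.0, 41.2 and 51.3 CPM from 340, 21 and 56 UMIs. Outside the 6 gates, Nr1d2 was 55.6, 58.1 and 36.2 CPM in epithelial cells. Phagocytes had 43.4, 24.2 and 24.3 CPM, highest in the control.

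Per1, a repressor of the loop that glucocorticoid and cAMP signals also induce, was highest in irradiated wild-type and lowest in the knockout library in 6 of 6 gates. Its level was 110, 133 and 97.6 CPM in T cells, 188, 200 and 127 CPM in B cells and 74.7, 92.5 and 66.1 CPM in fibroblasts. The B cell intervals of the wild-type libraries overlapped (179 to 197 and 185 to 215 CPM). In strict endothelial cells the wild-type libraries were level, at 84.9 and 84.4 CPM. Outside the 6 gates, epithelial cells had the same order, with the control (48.2 CPM) and the knockout library (48.0 CPM) level, whereas in phagocytes Per1 was lowest in irradiated wild-type. The ratio of knockout to irradiated wild-type lay between 0.635 (0.571 to 0.707) in B cells and 0.758 (0.694 to 0.829) in Trdc T cells, and every one of the 6 intervals was below 1. This direction held in 6 of 6 gates under 19 of 19 alternative settings. The same count was 13 of 19 for Ciart, lower in the knockout than in irradiated wild-type. Between the wild-type libraries it was 18 of 19 for Arntl (higher), 12 of 19 for Dbp (lower) and 9 of 19 for Nr1d1 (lower in as few as 3 gates). Being highest in irradiated wild-type in all 5 gates that do not nest was found for 6.72% of genes, and lowest in the knockout library for 1.52%. Averaged over these gates the log2 difference between the irradiated libraries was -0.48, number 91 from the lowest of 7726 genes tested.

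Per2 and Per3, the other period genes, were thinly counted. Per2 in fibroblasts was 10.7, 13.1 and 12.1 CPM, with no order like that of Dbp. Per3 in fibroblasts was 15.8, 16.4 and 10.8 CPM, and the ratio between the irradiated libraries was 0.654 (0.480 to 0.896). In lymphocytes Per2 was between 3.58 and 12.6 CPM and Per3 between 2.05 and 5.66 CPM.

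Ciart was lowest in the knockout library in 6 of 6 gates. Against the control it was lower in 6 of 6 gates under 12 of 19 alternative settings. With strict gates Ciart lost that order in NK cells (3.55, 6.30 and 5.94 CPM from 3, 9 and 12 UMIs). In B cells, its main site, the ratio of knockout to irradiated wild-type was 0.686 (0.619 to 0.761), while the wild-type libraries differed by 1.08 (0.987 to 1.18). With strict gates the levels were 219, 227 and 174 CPM and the ratio 0.768 (0.681 to 0.867). In fibroblasts, at 13.8, 12.8 and 7.59 CPM, the corresponding ratio was 0.591 (0.412 to 0.853). Endothelial cells had 29.2, 18.7 and 13.6 CPM, and in strict cells 36.6, 33.4 and 11 CPM, the last from 12 UMIs. With strict gates Per1 was lower in the knockout than in the irradiated wild-type library in all 5 gates that do not nest, as were 14.9% of genes tested, and Ciart, too thinly counted there to be among the genes tested, was lower in 5 as well.

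**Figure D2:**
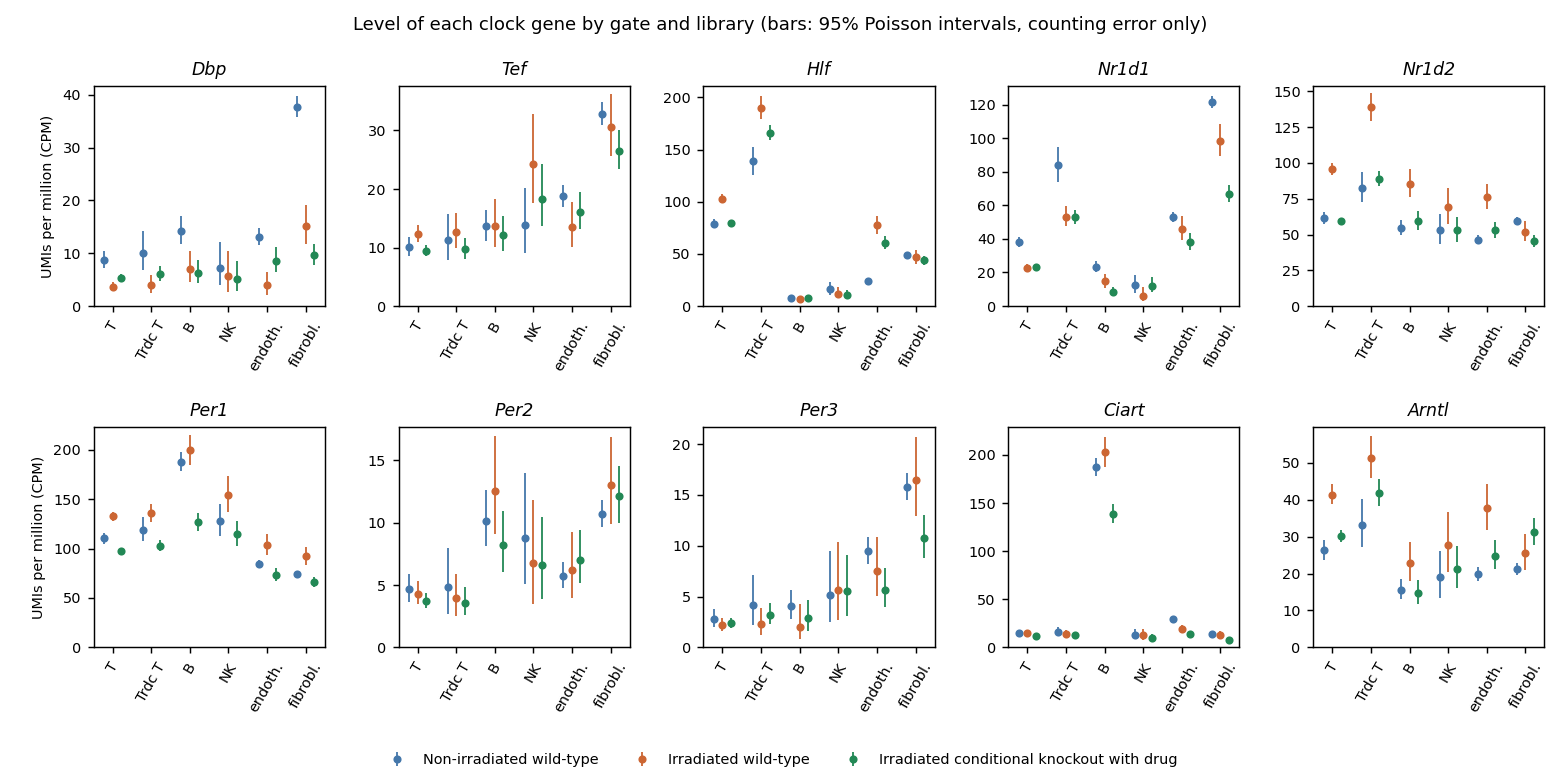
Level of each of the 10 clock genes (vertical axes, CPM, from 0) in 6 gates (horizontal axes) for the 3 libraries, with bars for 95% Poisson intervals that cover counting error only. Dbp and Nr1d1 are highest in the non-irradiated library in every gate drawn, with Nr1d1 in NK cells level with the knockout library (12.3 and 12.1 CPM), Per1 is highest in irradiated wild-type, and Arntl climbs in library order from 21.2 to 31.2 CPM in fibroblasts only.

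Few of these differences reached 2-fold. Of the 60 values (10 genes in 6 gates), 56 had the 30 UMIs needed between the wild-type libraries, and 2 were at least 2-fold lower with 5 CPM added to both sides: Dbp in endothelial cells and Dbp in fibroblasts. That is 3.57%, against 6.23% of all gene and gate values, and for fibroblasts alone 1.58% of genes. 1 value (1.79%), Hlf in endothelial cells, was at least 2-fold higher, against 1.55% of all. Between the irradiated libraries 0 of 57 values were 2-fold apart, where 0.598% of all were lower and 1.03% higher. From the control to the knockout library 2 of 58 (3.45%) were lower, Nr1d1 in B cells and Dbp in fibroblasts, and 1 (1.72%) higher, Hlf in endothelial cells, against 4.61% and 1.15% of all. With strict gates 1 of 49 values (2.04%), Dbp in fibroblasts, was lower between the wild-type libraries and 2 (4.08%), Tef in NK cells and Nr1d1 in endothelial cells, were higher, against 1.95% and 1.63% of all. Of 47 strict values between the irradiated libraries 0 were lower or higher (0.490% and 0.575% of all). From the control to the knockout library 2 of 51 (3.92%), Ciart in endothelial cells and Dbp in fibroblasts, were lower and 1 (1.96%), Tef in endothelial cells, higher, against 1.17% and 0.891%. The control library is shared by the first and last comparison and the irradiated wild-type library by the first and second, so they are not independent. With the gates as described the members passed the fold at rates near the background or under it. With strict gates 4 of the 6 rates were above the background, each resting on 1 or 2 values.

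Within fibroblasts most members lay below the median of all genes in the comparisons with the knockout library. Between the irradiated libraries 9 of 10 were lower in the knockout and Arntl alone was higher, with a median of -0.31 on the log2 scale against 0.03 over all 12316 genes tested. Some of the 9 differed little, with -0.09 for Hlf, -0.08 for Per2, -0.17 for Tef and -0.18 for Nr1d2. The level intervals of Hlf, Tef and Nr1d2 overlapped between these libraries. From the control to the knockout library 8 of 10 were lower, with a median of -0.31 against 0.04 over 14125 genes; Arntl and Per2 were the members above 0. Between the wild-type libraries 6 of 10 were lower, with a median of -0.06 against 0.02.

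**Figure D3:**
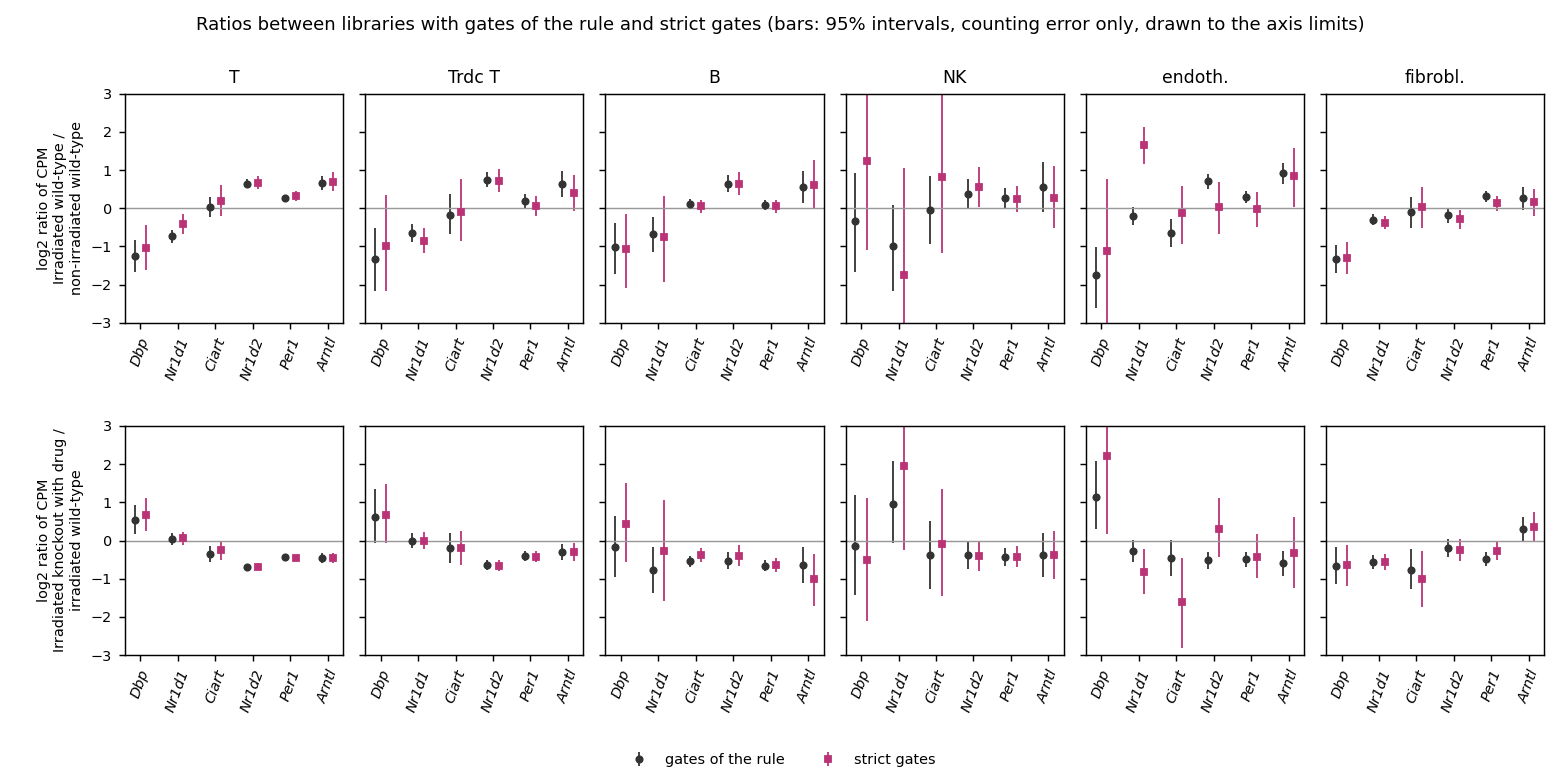
Ratios of CPM between libraries on a log2 axis for 6 clock genes (horizontal axes) in 6 gates (columns), for irradiated over non-irradiated wild-type (upper row) and knockout with drug over irradiated wild-type (lower row), with the gates as described (circles) and strict gates (squares) and 95% counting intervals. Fibroblast values hardly move between the gates, with Dbp at a ratio of 0.400 and 0.408 in the upper row, while endothelial Nr1d1 turns from 0.871 to 3.15.

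To ask about opposite phases directly, the UMIs of the 9 output genes were summed and divided by those of Arntl. Abundant members weigh most in this sum: in control T cells Per1 was 33.5% of it and Dbp 2.65%. The largest share in the control was Hlf in Trdc T cells (29.5%) and Nr1d1 in fibroblasts (29.3%). In B, NK and endothelial cells of the control it was Per1 (37.3%, 49.8% and 29.7%). In fibroblasts there were 19.5, 14.9 and 9.25 output UMIs per Arntl UMI. The ratio of these quotients was 0.760 (0.618 to 0.941) between the wild-type libraries and 0.623 (0.493 to 0.783) between the irradiated libraries, so both steps went the same way. In T cells the quotients were 12.5, 9.45 and 9.68, a first step of 0.755 (0.665 to 0.857) and a second of 1.02 (0.935 to 1.12) with no difference beyond counting error. Trdc T, B and NK cells followed T cells, with second steps of 0.99 to 1.06 whose intervals all include 1. NK cells had too few UMIs for the first step either, at 0.792 (0.493 to 1.26).

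The sum and Arntl, the parts of the quotient, differed between cell types. In fibroblasts the summed output was lower in each library than in the one before (415, 378 and 289 CPM) and Arntl was higher. In T cells the summed output was 329, 391 and 293 CPM, highest in irradiated wild-type, and Arntl had the same library on top by a larger factor in the first step. Dbp and Nr1d1, paired because they were highest in the control, had summed UMIs per Arntl UMI with a ratio of 0.361 (0.305 to 0.426) in the first step and 1.49 (1.30 to 1.70) in the second. Since Arntl was lowest in control T cells, that choice fixed the first ratio below 1 in advance. Its direction is therefore no finding. With an estimate of RNA carried over from stromal and epithelial cells subtracted, the first ratio was 0.548 and the second 1.48. The pair's level was then 25.1 and 24.1 CPM in the wild-type libraries. In strict T cells the same subtraction gave ratios of 0.469 and 1.53, and the pair's level was 33.9 and 26.0 CPM. The part of carried RNA in the first step was not tested. Per1, Nr1d2 and Hlf differed in T cells in the same direction as Arntl in both steps. Genes of opposite phase thus did not differ in opposite directions in all cell types.

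**Figure D4:**
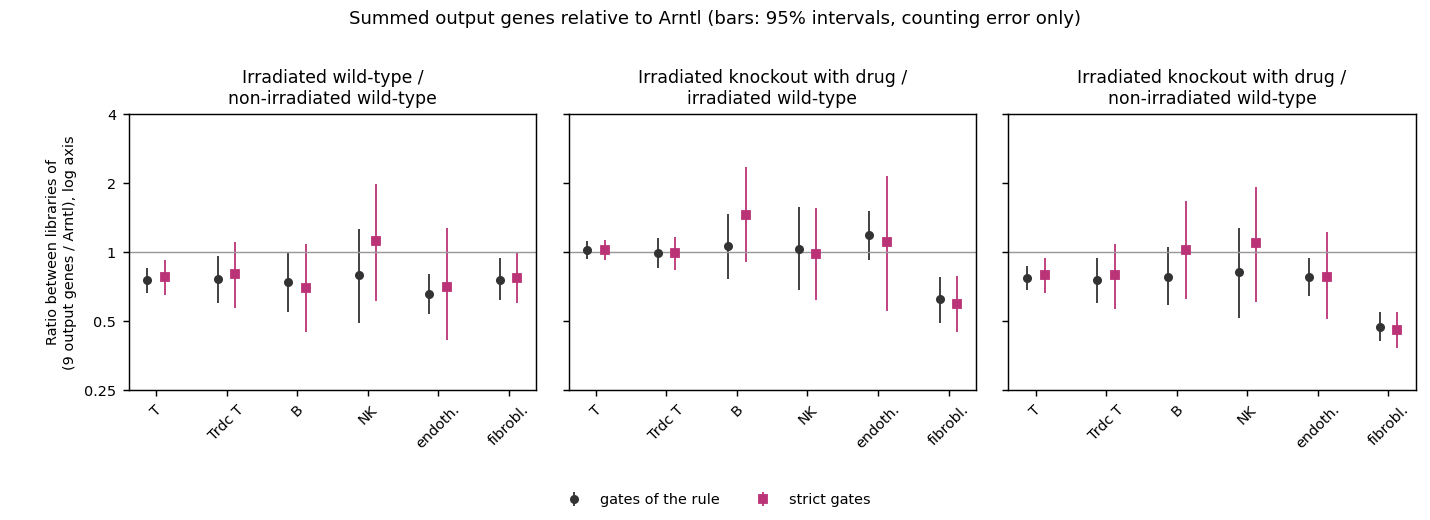
Ratio between libraries of output UMIs (9 genes) per Arntl UMI, on a log axis, in 6 gates (horizontal axes) for 3 pairs of libraries (panels), with the gates as described (circles), strict gates (squares) and 95% counting intervals. The fibroblast ratio is 0.760 and then 0.623, whereas T cells go from 0.755 to 1.02.

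The order of Dbp, Nr1d1 and Arntl in fibroblasts was the same with strict gates and in cells with the alveolar fibroblast gene Npnt, but not for all members in those without it. With strict gates Dbp was 42.0, 17.1 and 10.9 CPM, Nr1d1 135, 104 and 69.9 CPM and Arntl 22.4, 25.1 and 32.3 CPM, and 0.525% of genes were 2-fold lower between the wild-type libraries. In strict fibroblasts with a UMI of Npnt they were 46.1, 19.2 and 12.1 CPM for Dbp, 139, 105 and 67.1 CPM for Nr1d1 and 21.5, 24.8 and 32.6 CPM for Arntl. In those without Npnt, Dbp was lower throughout (19.6, 9.18 and 4.96 CPM, the last values from 6 and 5 UMIs), Nr1d1 was 114, 98.0 and 84.3 CPM and Arntl 27.4, 26.0 and 30.7 CPM, not in library order. Per1 was 73.8, 61.2 and 81.3 CPM in the cells without Npnt, lowest in irradiated wild-type, against 70.9, 82.8 and 62.1 CPM in those with it. Only 90 and 152 cells without Npnt were left after irradiation. The 6 fibroblast markers summed to 6064, 7916 and 8629 CPM in the gate and the 7 T cell markers to 105, 135 and 224 CPM, and their part in the differences was not tested. Cells thinned to equal depth and number gave -1.44 for Dbp between the wild-type libraries, but 0.19 between the irradiated ones, against -0.46 with all UMIs.

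The lymphocyte gates of the control library, where Dbp and Nr1d1 were highest, also held more cells that passed an unlike gate. Of T cells in the control, 21.2% also passed the gate of an unlike type, against 8.49% and 8.15% in the irradiated libraries. An estimate of carried stromal and epithelial RNA, made in proportion to the markers of those cells, is 17.6 of the 38.1 CPM of Nr1d1 in control T cells and 4.12 of the 8.72 CPM of Dbp. The remainders were 20.5, 20.7 and 20.5 CPM for Nr1d1, level in the libraries, and 4.60, 3.40 and 4.88 CPM for Dbp, still lowest in irradiated wild-type. Strict T cells, where the same estimate is 3.60 and 0.651 CPM in the control, had 31.0, 23.2 and 24.1 CPM of Nr1d1, a first ratio of 0.750 (0.630 to 0.896), and 7.17, 3.49 and 5.53 CPM of Dbp, a first ratio of 0.486 (0.325 to 0.733). The remainders in strict T cells were 27.4, 22.6 and 23.7 CPM for Nr1d1, highest in the control, and 6.52, 3.43 and 5.45 CPM for Dbp. In control NK cells the estimate for Nr1d1 (18.7 CPM) exceeded the level measured (12.3 CPM), and in control B cells it was 22.9 of 23.4 CPM. The part of carried RNA in the levels of any lymphocyte gate was not tested. Arntl in strict T cells was 26.6, 42.8 and 31.3 CPM, close to its levels in the whole gate.

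**Figure D5:**
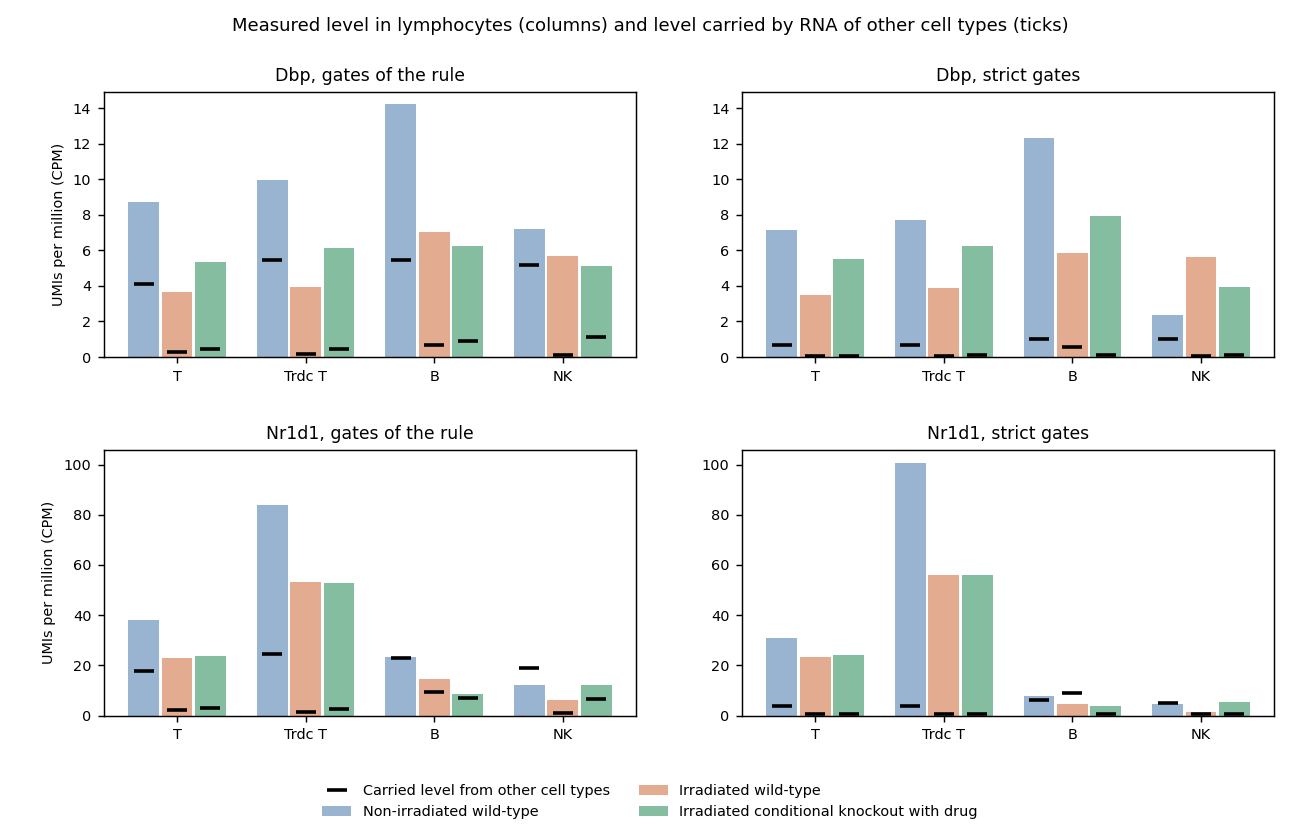
Measured level (bars, CPM, from 0) of Dbp and Nr1d1 in 4 lymphocyte gates of the 3 libraries, and the level that carried RNA of fibroblasts, endothelial and epithelial cells would give (black ticks), with the gates as described (left) and strict gates (right). In control T cells the estimate is 17.6 of 38.1 CPM for Nr1d1 and 4.12 of 8.72 CPM for Dbp.

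Some members overlap other genes, and the strand used in counting is not given in the sources used here. Nr1d1 (chr11:98767932-98775333) shares 1075 bases at its 3' end with Thra on the opposite strand, whose level in fibroblasts was 155, 133 and 122 CPM, in descending order as well. Dbp (chr7:45705088-45710203) shares 737 bases with Sphk2, which in fibroblasts was 14.8, 17.3 and 15.6 CPM and did not share the order of Dbp. Per3 (chr4:151003652-151044665) lies within Camta1 on the same strand, and Camta1 was 36.3, 25.0 and 31.2 CPM in fibroblasts. Ciart (chr3:95878503-95882251) lies within the antisense gene C920021L13Rik, which had 6.01, 6.44 and 6.44 CPM in B cells. Hlf, Nr1d2, Per1 and Per2 overlap no annotated gene, and the antisense partners of Tef and Arntl were at or near 0.

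Beyond the members, 16 other clock genes were followed. Between the wild-type libraries 10 of 14 tested in T cells were above 0 and 10 of 15 in fibroblasts, with medians of 0.10 and 0.10 against 0.06 and 0.02 over all genes. In T cells 2 of them were 2-fold higher, where the background is 0.653%, and none was in fibroblasts. Rora, whose receptor competes with the REV-ERBs at the Arntl promoter, was 644, 1391 and 791 CPM in T cells and 204, 266 and 236 CPM in fibroblasts. It was higher in irradiated than in non-irradiated wild-type in 6 of 6 gates (mean log2 1.13) and lower in the knockout than in irradiated wild-type in 6 of 6 (-0.65), the order that Arntl had in T and NK cells. Bhlhe40, a repressor at E-boxes, was 501, 1041 and 790 CPM in T cells. Its mean over the 6 gates was above the control in both irradiated libraries (0.75 and 0.58).

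Csnk1e, a kinase of the PER proteins, was lower in irradiated than in non-irradiated wild-type on average over the 6 gates (-0.52), with 92.1, 73.6 and 73.7 CPM in fibroblasts. Between the irradiated libraries 13 of 15 other clock genes were below 0 in T cells and 8 of 14 in fibroblasts, with medians of -0.13 and -0.02 against -0.05 and 0.03. Bhlhe41, a repressor at E-boxes like Bhlhe40, had a mean of -0.22 over the 6 gates there. Cry1, a repressor that peaks late in the cycle, was 13.2, 21.4 and 23.8 CPM in fibroblasts, low in the control as Arntl was.

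Across 15 values (5 gates that do not nest by 3 libraries, each gene centred within its gate), Dbp had a Pearson correlation of -0.73 with Arntl, 0.70 with Nr1d1 and -0.79 with Cry1, and Arntl had 0.76 with Nr1d2 and 0.76 with Cry1. The points of a library share its cells, depth and mixing of cell types, so these are descriptions. Among 8916 genes the ones most like Dbp were Fdps (0.92), Gata2, Myzap, Lyve1 and Tie1 (0.88), of which Tie1 and Lyve1 are endothelial or lymphatic genes, and the ones least like it Nup88 (-0.87), Mdm2, Sec22b, Hmga1 and H2-Q7 (-0.84). Most like Arntl were Dhx38 (0.94), Tmem248, Foxo1, Ap3b1 and Nup98 (0.94), and least like it Polr2e (-0.93), Dmac1, Rdm1, Fas and Icam1 (-0.89).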

How the data were processed

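The deposited matrices hold raw UMI counts, as whole numbers for each gene and barcode. Version 3.1.0 of an unnamed program made them, per the file headers, and the build is mm10 per the submitters' processing notes. Every deposited barcode has at least 500 UMIs. Cells with at least 250 genes and at most 15% mitochondrial UMIs were gated by marker UMIs, UMIs were summed per gate and library, and levels are UMIs per 1000000 of the gate's total. A gene counted as apart at 2-fold with 5 CPM added to both sides, and needed 30 UMIs over both libraries and 50 cells in each. All members are named. Of 4 lists (16 other clock genes, clock-controlled, glucocorticoid and immediate early genes) the 3 genes with the largest mean log2 ratio per pair are named, and other list genes were named after their values were seen; 1 gene the rule picks is not reported here. The genes most and least like Dbp and Arntl are the 5 at each end of a Pearson correlation over 15 values, leaving out genes of mitochondria, ribosomal proteins, haemoglobin, receptor segments and the sex-linked Xist, Tsix and Y genes.

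Members and lists were chosen with earlier results of these data known. The strict gates, their female cells, the splits by Npnt, Car4 and Ms4a1, and 2 further settings were added after the data were seen. No doublets were removed in the values reported. In an alternative, the barcodes with the highest Scrublet scores were removed per library (1622, 329 and 893 cells). Carried RNA was estimated as the median share, in a lymphocyte gate, of 5 fibroblast, 5 endothelial and 3 epithelial markers' levels in their own cells, multiplied by the level of the clock gene there and summed. Thinning drew 1000 UMIs per cell. Alternatives varied scaling, filters, doublets, overlap of gates, sex, depth, the CPM added, the fold and the genes summed. The fold rule and the intervals were tested on simulated data. Promoters are from RefSeq and gene positions from GENCODE vM21, both on GRCm38. Tools were scanpy 1.11.5, pandas 2.3.3, scipy 1.17.1 and numpy 2.4.6 in python 3.11.15.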

Additional observations from a re-analysis of the deposited data

Results flagged for a closer look

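Some members differed in opposite directions in 2 gates with both counting intervals clear of 0, on the log2(CPM + 5) scale, and with 1 library per group none of these differences between gates was tested. Tef was higher in irradiated than in non-irradiated wild-type in NK cells (0.64) and lower in the endothelial gate (-0.36). Dbp was higher in the knockout library than in irradiated wild-type in the endothelial gate (0.61) and lower in fibroblasts (-0.46). Nr1d2 was higher in the knockout library than in the control in the endothelial gate (0.17) and lower in fibroblasts (-0.35). The endothelial gate is on one side of all 3, and its share of cells that also pass an unlike gate was 26.2%, 53.9% and 53.1% in the libraries. In strict endothelial cells Tef was 15.5, 25.5 and 36.7 CPM, and Dbp was 8.59, 3.93 and 18.3 CPM from 73, 2 and 20 UMIs. Of those 20 UMIs, 60% came from 3 cells.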

How the results depend on the processing

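No paired analysis was possible because each group has 1 library. Of the log2 ratios of members under the alternatives, 3160 moved less than their counting interval. In 301 of the 3420 values the sign differed from that reported, and 97 of the 180 ratios changed sign under at least 1 alternative. Of ratios at least 2-fold apart, 1 changed sign: Hlf in the endothelial gate between the wild-type libraries was -0.99 with strict gates and -1.0 with strict gates and female cells only. All counts below are of values over gates; those of members 2-fold apart are small, so single values move them.

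Between the wild-type libraries 2 values were 2-fold lower; 1 was with a mean of per-cell CPM, doublets removed, cells in unlike gates left out, gates 1 UMI higher, cells thinned, median-of-ratios scaling, female cells that pass no unlike gate, and strict gates with both sexes or female cells. It was 4 with 1 CPM added, 0 with 20 CPM added, 0 with female cells only, and 8 when 1.5-fold counted. The 1 value higher became 2 with the per-cell mean, with female cells that pass no unlike gate and with strict gates, 5 with cells thinned and 7 at 1.5-fold. From the control to the knockout library the 2 lower values became 1 with doublets removed, with cells thinned and with median-of-ratios scaling, 4 with 1 CPM added, 0 with 20 CPM added and 7 at 1.5-fold, and the 1 higher value became 0 with 20 CPM added and with strict gates and female cells. Between the irradiated libraries the 0 higher values became 1 with cells in unlike gates left out and 2 at 1.5-fold, and the 0 lower values 1 with gates 1 UMI higher and with female cells that pass no unlike gate, and 3 at 1.5-fold.

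The counts that follow are of the quotient of output genes to Arntl in CPM with 5 CPM added to both. With nothing added it was higher in 0, 4 and 0 of 6 gates (wild-type libraries, irradiated libraries, control to knockout), and with strict gates in 1, 3 and 2. With 5 CPM added it was higher in 0 of 6 gates between the wild-type libraries. It was higher in 2 with cells in unlike gates left out and with female cells of that kind, 1 with gates 1 UMI higher and with strict gates of both kinds, 5 with cells thinned, and 3 with Arntl, Npas2 and Clock summed. From the control to the knockout library the 0 became 2 with cells thinned and 1 with cells in unlike gates left out, female cells of that kind, strict gates of both kinds and the 3 activators summed. Between the irradiated libraries it was higher in 1 gate, in 2 with doublets removed, cells in unlike gates left out, female cells of that kind, at least 3000 UMIs, median-of-ratios scaling and strict gates, in 3 with the per-cell mean, female cells only, cells thinned, Per1 left out and strict gates with female cells, in 4 with 1 CPM added and in 0 with the 3 activators summed. The causes were not tested. Thinned cells hold few UMIs of any member, so values from them are the least precise. NK cells and strict endothelial cells are limited by depth, with 10 to 14 Dbp UMIs per library in NK cells and 74 and 181 strict endothelial cells in the irradiated libraries.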

Other observations

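Immediate early genes, which respond within minutes to stimulation, differed in opposite directions in fibroblasts and T cells between the wild-type libraries. In fibroblasts 11 of 12 were higher in irradiated than in non-irradiated wild-type (median log2 0.36 against 0.02 over all genes) and 12 of 12 lower in the knockout library than in irradiated wild-type (-0.54 against 0.03). Egr1, a growth response transcription factor, was 1045, 1768 and 892 CPM there. In T cells 11 of 12 were lower in irradiated than in non-irradiated wild-type (-0.61 against 0.06), and between the irradiated libraries 8 of 12 were lower (-0.14 against -0.05), as in fibroblasts. Levels in T cells were for Fos 301, 143 and 131 CPM, for Ier3 80.4, 24.6 and 35.2 CPM and for Fosb 317, 207 and 143 CPM. Zfp36, which destabilizes cytokine transcripts, was lower in the knockout library than in irradiated wild-type on average over the 6 gates (-0.25).

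Glucocorticoid signals induce other genes besides Per1, and 11 of these were followed. In fibroblasts 10 of 11 were higher in irradiated than in non-irradiated wild-type (median 0.47 against 0.02), and in T cells 9 of 11 were lower (-0.17 against 0.06). Errfi1, a feedback inhibitor of EGF receptor, was 113, 212 and 145 CPM in fibroblasts. Its mean over the 6 gates was lower in the knockout than in irradiated wild-type (-0.47). Dusp1, a phosphatase of MAP kinases, was 613, 875 and 538 CPM in fibroblasts. Zbtb16 in T cells was 22.5, 52.7 and 26.3 CPM, in the same order as Arntl. Tsc22d3 in T cells was 360, 191 and 271 CPM and in fibroblasts 357, 389 and 339 CPM. Cebpd (75.6, 13.7 and 15.4 CPM) and Klf9 (72.8, 41.4 and 39.6 CPM) were highest in control T cells, and their fibroblast levels were 728, 697 and 771 CPM and 424, 439 and 348 CPM. In strict T cells Klf9 was 34.5, 37.6 and 34.9 CPM, level in the libraries, whereas Cebpd was 16.0, 2.64 and 3.53 CPM, Fos 179, 132 and 121 CPM and Tsc22d3 353, 184 and 267 CPM, each still highest in the control.

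Of 5 clock-controlled genes, 1 was higher in irradiated than in non-irradiated wild-type T cells and 3 in fibroblasts. Their median log2 differences were near those of all genes (-0.03 against 0.06 in T cells, 0.005 against 0.016 in fibroblasts). Por, the electron donor of cytochrome P450 enzymes, was 148, 116 and 113 CPM in fibroblasts. Its mean over the 6 gates was lower than the control in irradiated wild-type and in the knockout library (-0.39 and -0.48). Nampt, the rate-limiting enzyme of NAD salvage, was higher in irradiated than in non-irradiated wild-type on average over the 6 gates (0.23). Usp2, a deubiquitinase, was 23.1, 27.7 and 16.3 CPM in fibroblasts. Wee1, a kinase that holds cells before mitosis, was lower in the knockout library than in the control (mean -0.31), with 28.0, 23.0 and 25.1 CPM in fibroblasts. Tspan4 was 8.38, 2.93 and 2.47 CPM in T cells and 68.9, 75.4 and 72.6 CPM in fibroblasts.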
